A study of Mus musculus with 18 samples.

Results

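Hedgehog pathway genes were followed through cultured mouse cells kept still or placed under fluid shear, in a wild-type and a cilium-mutant background. The 9 genes were Ptch1, Smo, Sufu, Gli1, Gli2, Gli3, Hhip, Gas1 and Boc. They were chosen by name, as core receptors, co-receptors, regulators and transcription factors of the pathway, and each matched exactly 1 of the 21647 gene rows of the count table. All 9 passed the filter on low counts, as did 13058 genes in total, but Gli2, Hhip and Boc passed only through their reads in the mutant libraries.

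The samples were labelled embryonic aortic endothelial cells, taken from wild-type mice (WT) or from mice homozygous for Tg737orpk (Tg737orpk/orpk, here orpk), an insertion mutation in Ift88. Ift88 encodes a part of the transport machinery that builds the primary cilium. Cells of both genotypes were grown on gelatin in low-serum medium and starved of serum for 24 h. They were then either kept static or put for 48 h under laminar shear of 2 or 30 dyn/cm2. No such time was recorded here for the static groups, so whether their time in culture matched is not known. This gave 6 groups of 3 libraries, WT static, WT 2, WT 30, orpk static, orpk 2 and orpk 30, from stranded mRNA libraries read as single short reads. The labels do not say whether the 3 libraries of a group came from separate animals, isolations or slides, or whether each genotype was 1 isolate, so a p-value below takes account of spread among libraries that may be technical only, and a difference between genotypes cannot be told apart from a difference between isolates.

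In the Hedgehog pathway, a secreted ligand (Shh, Ihh or Dhh) binds the receptor Ptch1, which without ligand holds the membrane protein Smo inactive. Active Smo gathers in the primary cilium and relieves the Gli transcription factors from their inhibitor Sufu; Gli2 then acts mainly as an activator, Gli3 mainly as a repressor, and Gli1 is itself switched on by the pathway. Ptch1, Hhip and Gli1 are classic target genes of the pathway in many tissues, whereas Gas1 and Boc, co-receptors that help ligand bind Ptch1, are often repressed by it. Since Gli proteins are processed at the cilium, mutations of ciliary transport can alter both activation and repression.

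To show the members whose levels set the genotypes apart, the 250 bases before the RefSeq start of 4 of them are given here, 5′ to 3′ on the gene's own strand, with GC boxes (GGGCGG or its reverse complement CCGCCC, the Sp1-type motif of many promoters without a TATA box) in capitals. The positions, on GRCm38.p6, are chr13:63565736-63565985 for Ptch1, chr13:60177536-60177785 for Gas1, chr1:119053620-119053869 for Gli2 and chr8:80058009-80058258 for Hhip, all on the minus strand. The Ptch1 stretch lies within the gene as GENCODE M21 annotates it, outside its exons, and the Gas1 stretch overlaps an exon of the non-coding gene Gm48488.
Ptch1: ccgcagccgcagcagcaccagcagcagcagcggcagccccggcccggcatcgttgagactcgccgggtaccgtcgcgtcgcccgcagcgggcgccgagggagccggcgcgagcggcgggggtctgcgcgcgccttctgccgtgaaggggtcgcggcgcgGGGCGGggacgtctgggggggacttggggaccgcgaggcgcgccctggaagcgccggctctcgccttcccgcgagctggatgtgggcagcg
Gas1: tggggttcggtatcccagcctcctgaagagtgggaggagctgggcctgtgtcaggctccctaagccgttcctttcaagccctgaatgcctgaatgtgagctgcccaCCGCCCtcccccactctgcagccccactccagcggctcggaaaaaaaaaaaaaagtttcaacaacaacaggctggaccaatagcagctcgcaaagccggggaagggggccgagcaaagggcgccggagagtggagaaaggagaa
Gli2: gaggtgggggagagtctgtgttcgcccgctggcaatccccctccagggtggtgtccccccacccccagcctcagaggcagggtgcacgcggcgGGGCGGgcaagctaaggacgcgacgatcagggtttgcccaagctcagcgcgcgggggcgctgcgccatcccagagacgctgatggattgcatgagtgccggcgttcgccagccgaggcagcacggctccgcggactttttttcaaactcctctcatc
Hhip: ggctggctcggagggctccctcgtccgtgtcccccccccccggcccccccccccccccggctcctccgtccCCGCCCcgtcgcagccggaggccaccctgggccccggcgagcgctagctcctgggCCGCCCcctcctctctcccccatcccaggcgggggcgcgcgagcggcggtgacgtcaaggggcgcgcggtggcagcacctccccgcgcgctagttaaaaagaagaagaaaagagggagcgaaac

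These stretches, from RefSeq, hold 1 GC box before Ptch1, 1 before Gas1, 1 before Gli2 and 2 before Hhip, and 32.7% of all 32851 RefSeq windows of that length hold at least 1. Their CpG dinucleotides number 41 for Ptch1, 10 for Gas1, 22 for Gli2 and 28 for Hhip, against a median of 6 over all windows (quartiles 2 and 16). Not shown are the stretches of Smo (0 GC boxes and 15 CpG), Sufu (1 and 8) and Gli3 (2 and 34). RefSeq windows were found for 7 of the 9 genes, Gli1 and Boc having no entry. In those 7, taken from 250 bases before to 50 after the start, the Gli consensus TGGGTGGTC was not matched on either strand with up to 1 mismatch, a match that 6.74% of all windows contain and that 0.253% contain exactly. That says only that these letters are not in these windows.

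Library totals ran from 13626480 to 17387553 reads, a 1.28-fold range, and 1 CPM (a read count scaled to library size) stood for 12.9 to 18.4 reads. Levels below are CPM scaled by the TMM method, and differences are log2 fold changes from edgeR's quasi-likelihood test with p-values adjusted by Benjamini-Hochberg over the 13058 genes of a comparison, called at 0.05. Each SE of a difference was derived from that test, as the size of the log2 fold change over the square root of the F statistic. Where a group held few reads, this SE can be smaller than counting error alone. Ift88, the gene with the insertion, was at 12.8 to 17.4 CPM in the 9 WT libraries and at 6.37 to 8.46 CPM in the 9 orpk libraries, with log2 fold changes of -0.99 ± 0.10 (SE) static, -0.91 ± 0.10 at 2 and -0.95 ± 0.11 at 30 dyn/cm2. WT 2 replicate 1 and orpk 2 replicate 2 stood apart from their group: chi-square per degree of freedom against their partners was 6.35 and 7.74 for the first and 3.39 and 3.79 for the second, against 1.21 to 2.33 for all other pairs. Leaving out the first changed the calls of Gli1 in WT from 2 to 30 dyn/cm2 and of Ptch1 in the comparison of responses over that step, given below; leaving out the second changed no member's call.

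The endothelial label was met by few defining markers. Over 13 endothelial markers the summed level was 11.1 to 14.2 CPM in WT and 17.4 to 22.7 CPM in orpk libraries. Cdh5 (VE-cadherin), Tie1 and the transcription factor Erg had no read in any WT library, and Cldn5 and Robo4 none in any orpk library. Of the 9 endothelial markers tested, 7 were higher in orpk at each shear and 2 lower. Of all tested genes, 44.4% to 44.9% were higher and 42.0% to 43.4% lower. Cdh5, Kdr, Tek, Erg and Vwf, with 0 to 7 reads in a WT group, passed the filter on low counts only through orpk. They could be called only as higher, and Pecam1, which passed only through WT, only as lower. Fibroblast markers were at far higher levels: the sum over 10 of them was 716 to 1155 CPM in WT and 25969 to 41005 CPM in orpk, and 10 of 10 were higher in orpk at each shear (44.4% to 44.9% of all tested genes). In a WT group, 5 or 6 of the 10 averaged under 1 CPM. Any that passed the filter only through orpk could be called only as higher. The sum over 8 smooth muscle and pericyte markers was 50.0 to 130 CPM in WT and 1501 to 4425 CPM in orpk, that over 9 epithelial and mesothelial markers 352 to 571 CPM in WT and 158 to 302 CPM in orpk, and that over 7 leukocyte markers 17.5 to 57.4 CPM in WT and 13.2 to 25.7 CPM in orpk. These levels move with every genotype difference below, and their part in those differences was not tested. In such bulk libraries, fewer cells of a type and less RNA per cell cannot be told apart.

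Between the genotypes, the 9 genes split into a set that was almost silent in WT and present in orpk (Gli2, Hhip, Boc), a set that was much higher in orpk (Gas1, Gli1), a moderately higher gene (Smo) and genes lower in orpk (Ptch1, Sufu, and Gli3 in 2 of 3 conditions). In static cells 6 of 9 were higher in orpk, where 44.4% of all tested genes were, and 3 were lower, where 43.4% were. At 2 dyn/cm2, 7 were higher and 2 lower, with 44.6% and 42.9% of all genes so called. At 30 dyn/cm2, 6 were higher and 3 lower, with 44.9% and 42.0%. Gli2, Hhip and Boc, which passed the filter only through orpk, could be called only as higher; of the other 6 members, 3 were higher and 3 lower static, 4 and 2 at 2 dyn/cm2, and 3 and 3 at 30. Since most tested genes differed between the genotypes, nothing about the members as a set is read from these counts. With library totals in place of TMM, the share of called genes that were higher in orpk went from 51.0% to 40.6% at 2 dyn/cm2 and from 51.6% to 38.5% at 30.

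**Figure D1:**
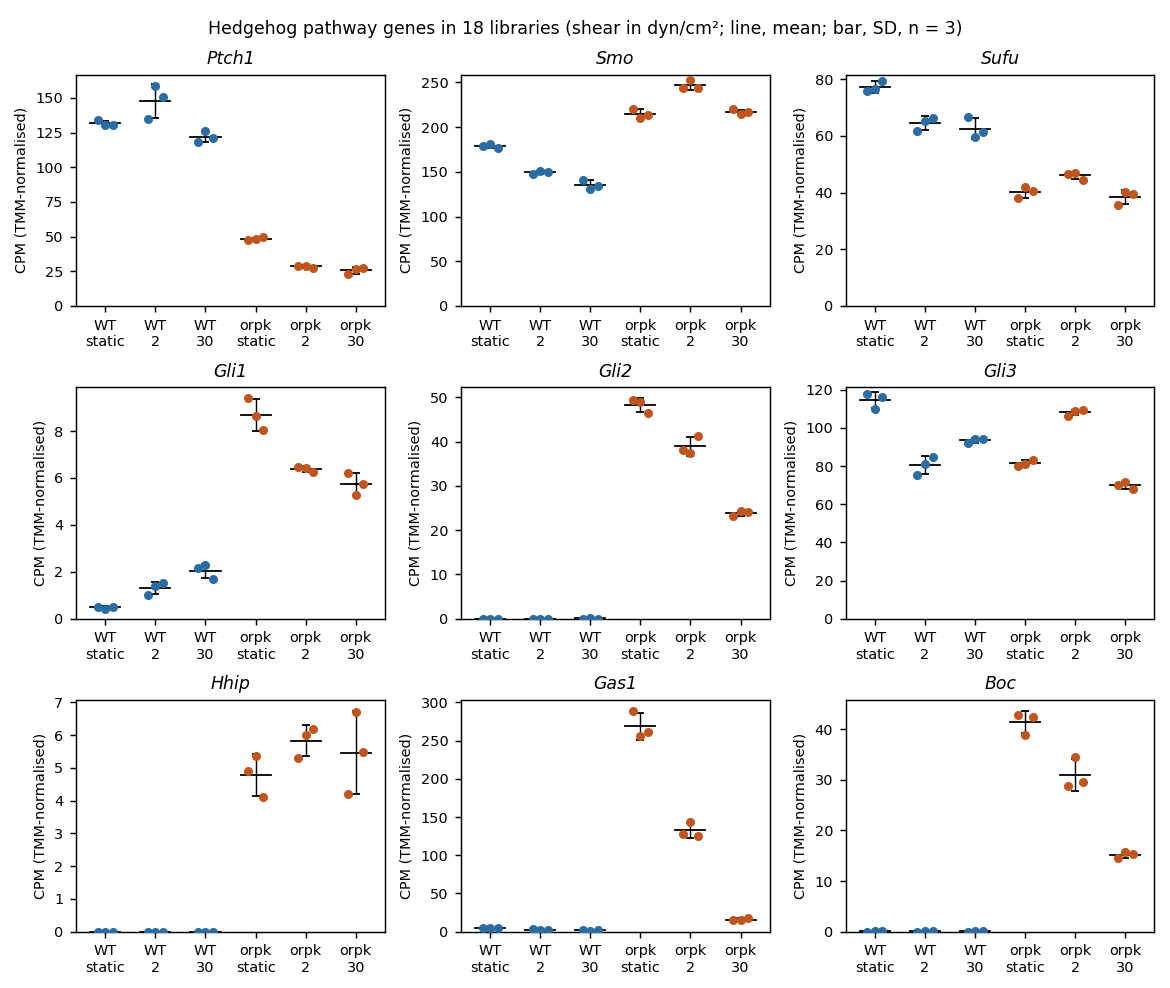
TMM-normalised CPM of the 9 genes in each of the 18 libraries, by genotype and shear (dyn/cm2), with the group mean (line) and SD (bar, n = 3); each panel has its own axis from 0. Gli2, Hhip and Boc lie at or near 0 in WT and between 4.10 and 49.3 CPM in orpk, and Gas1 falls from a mean of 269 to 15.8 CPM across the orpk groups.

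Ptch1, the ligand receptor and itself a target of the pathway, was the member most reduced in orpk. In WT static cells its 3 libraries had 134, 130 and 130 CPM, in WT 2 they had 134, 158 and 151, and in WT 30 they had 119, 126 and 121. In orpk the values were 47.8, 48.0 and 49.4 CPM static, 29.2, 28.6 and 27.7 at 2 dyn/cm2, and 22.7, 26.9 and 27.2 at 30. No library of one genotype reached into the other's range, and within orpk every sheared library lay below every static one. The genotype difference was -1.44 ± 0.05 static, -2.38 ± 0.05 at 2 and -2.25 ± 0.06 at 30 dyn/cm2 (log2 ± SE), that is 2.72-fold, 5.19-fold and 4.76-fold lower in orpk. In WT, shear moved Ptch1 little: by 0.17 ± 0.05 at 2 (adjusted p = 0.00147) and by -0.11 ± 0.05 at 30 (adjusted p = 0.0342). The second of these calls did not hold when library totals set the scaling (-0.02, adjusted p = 0.693), nor without WT static replicate 1 or 3 or WT 30 replicate 1 or 3 (adjusted p from 0.054 to 0.135). In orpk, shear lowered Ptch1 by 0.77 ± 0.06 at 2 and by 0.92 ± 0.07 at 30, and the step from 2 to 30 dyn/cm2, -0.15 ± 0.07, missed the threshold (adjusted p = 0.0604) but passed it under 8 of 12 alternatives. The orpk response was lower than the WT response by 0.93 ± 0.08 at 2 and 0.81 ± 0.08 at 30 dyn/cm2, both past the threshold of the interaction test. Over the step from 2 to 30 dyn/cm2 the 2 genotypes' responses differed by 0.12 ± 0.08 (adjusted p = 0.244), which became 0.19 (adjusted p = 0.0328) without WT 2 replicate 1.

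Smo, the membrane protein that Ptch1 restrains and the step that passes the signal inside the cell, was higher in orpk and moved in opposite directions in the genotypes at 2 dyn/cm2. WT libraries had 179, 181 and 176 CPM static, 148, 151 and 150 at 2 dyn/cm2, and 141, 131 and 135 at 30. The orpk libraries had 221, 211 and 213 CPM static, 244, 253 and 244 at 2, and 220, 215 and 217 at 30. All 9 orpk libraries lay above all 9 WT libraries. In WT, Smo fell by 0.26 ± 0.04 at 2 and by 0.40 ± 0.04 at 30 dyn/cm2, whereas in orpk it rose by 0.20 ± 0.03 at 2 (adjusted p = 3.30e-06) and stood at 0.02 ± 0.04 against static at 30 (adjusted p = 0.669). From 2 to 30 dyn/cm2 it fell by 0.14 ± 0.04 in WT and by 0.18 ± 0.03 in orpk. The responses differed by 0.46 ± 0.05 at 2 and 0.42 ± 0.05 at 30. The genotype difference was 0.26 ± 0.04 static, 0.72 ± 0.04 at 2 and 0.68 ± 0.04 at 30 dyn/cm2, and the static one was 0.05 (adjusted p = 0.203) with library totals as the scaling.

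Sufu, which holds the Gli factors in the cytoplasm, was at 75.7, 76.6 and 79.5 CPM in WT static cells, at 61.7, 65.2 and 66.5 in WT 2 and at 66.6, 59.6 and 61.5 in WT 30. The orpk libraries had 38.1, 42.0 and 40.5 CPM static, 46.5, 47.0 and 44.6 at 2, and 35.7, 40.2 and 39.4 at 30. Every orpk library was thus below every WT library. The difference was -0.94 ± 0.05 static, -0.48 ± 0.05 at 2 and -0.70 ± 0.05 at 30 dyn/cm2. Sufu fell under both shears in WT, by 0.26 ± 0.05 and 0.31 ± 0.05; in orpk it rose at 2, by 0.20 ± 0.06 (adjusted p = 0.00261), and gave -0.06 ± 0.06 at 30 against static (adjusted p = 0.338). All 3 interaction tests were past the threshold, with differences of 0.46 ± 0.07, 0.24 ± 0.08 and, from 2 to 30 dyn/cm2, -0.22 ± 0.08. The second became 0.14 (adjusted p = 0.109) with library totals, and the third -0.17 without orpk 30 replicate 1 (adjusted p = 0.0857) or without WT 30 replicate 1 (adjusted p = 0.072).

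Gas1, a lipid-anchored co-receptor first found as a growth arrest gene, had the widest range of the members read in all 18 libraries. In WT it had 5.42, 4.97 and 4.94 CPM static, 2.99, 2.82 and 2.60 at 2 dyn/cm2, and 1.68, 1.44 and 2.04 at 30. In orpk it had 289, 256 and 261 CPM static, 128, 144 and 126 at 2, and 15.1, 14.8 and 17.7 at 30. The 6 groups did not overlap, and in both genotypes each step up in shear brought a lower level. Shear lowered Gas1 in WT by 0.86 ± 0.16 at 2 and by 1.56 ± 0.18 at 30; in orpk it fell by 1.02 ± 0.05 at 2 and by 4.09 ± 0.06 at 30, which is 17.0-fold. From 2 to 30 dyn/cm2 it fell by 0.70 ± 0.20 in WT and fell by 3.07 ± 0.07 in orpk, a difference between the responses of -2.37 ± 0.24. The 2 genotypes' responses to 2 dyn/cm2 differed by -0.16 ± 0.17 (adjusted p = 0.478), and their responses to 30 by -2.52 ± 0.23 (adjusted p = 3.53e-12). Gas1 was 52.5-fold higher in orpk than in WT when static, 47.2-fold at 2 and 9.14-fold at 30 dyn/cm2. Other cell type markers moved over the same steps in orpk. Of 10 fibroblast markers, 1 rose and 8 fell at 2 against static, where 30.9% and 31.1% of all tested genes did. At 30 against static 2 rose and 7 fell, where 36.5% and 33.3% of all tested genes did. Pdgfra had orpk means of 1774 CPM static, 539 at 2 and 149 at 30 dyn/cm2, and Thy1 of 37.1, 52.3 and 79.0 CPM. The summed fibroblast markers in orpk were 40164 to 41005, 25969 to 30652 and 29278 to 31225 CPM, and the summed smooth muscle and pericyte markers 1501 to 1625, 2024 to 2245 and 4330 to 4425 CPM, with 5 of 5 tested higher at 30 than static (36.5% of all tested genes). The part of these in the Gas1 change was not tested.

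Boc, an immunoglobulin-family co-receptor, gave 9 reads in all over the 9 WT libraries: 0, 1 and 3 reads static, 0, 1 and 1 at 2 dyn/cm2, and 0, 1 and 2 at 30. In orpk it had 42.7, 38.8 and 42.4 CPM static, 28.8, 34.6 and 29.4 at 2, and 14.5, 15.8 and 15.3 at 30. The orpk groups did not overlap and stepped down with shear, by 0.41 ± 0.07 at 2 and by 1.44 ± 0.08 at 30, with a further fall of 1.03 ± 0.08 between them. Against the few WT reads the orpk level was 485-fold higher static (95% exact counting interval 189 to 1781), 829-fold at 2 (229 to 6855) and 268-fold at 30 (91.2 to 1302); these intervals cover counting error only. Changes of Boc in WT could not be resolved at this depth.

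Hhip, a membrane-tethered decoy that binds Hedgehog ligand and is usually induced by the pathway, had no read in any of the 9 WT libraries. In orpk it had 4.92, 5.36 and 4.10 CPM static, 5.29, 6.01 and 6.19 at 2 dyn/cm2, and 4.19, 6.71 and 5.50 at 30, with overlap among all 3 groups. Set against the limit of 3 reads over a group that a count of 0 allows, it was at least 75.5-fold higher in orpk static, 104-fold at 2 and 96.7-fold at 30. These limits leave out the counting error of the orpk reads. Hhip alone among the 9 had no shear comparison in orpk past the threshold, with 0.28 ± 0.15 at 2 (adjusted p = 0.113) and 0.19 ± 0.16 at 30 (adjusted p = 0.300). With library totals as the scaling, the first was 0.38 (adjusted p = 0.0277).

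Gli1, the Gli factor whose transcript is the common readout of pathway activity, was low throughout and responded to shear in opposite directions in the genotypes. In WT it had 0.522, 0.420 and 0.517 CPM static (23 reads in all), 1.03, 1.38 and 1.52 at 2 dyn/cm2, and 2.16, 2.27 and 1.71 at 30. In orpk it had 9.41, 8.65 and 8.05 CPM static, 6.48, 6.43 and 6.25 at 2, and 6.22, 5.29 and 5.73 at 30. The WT groups rose without overlap, the orpk groups fell without overlap, and all orpk libraries stayed above all WT libraries. In WT, Gli1 rose by 1.41 ± 0.30 at 2 (adjusted p = 8.55e-05) and by 2.05 ± 0.27 at 30 (adjusted p = 1.28e-08), or 2.65-fold and 4.13-fold. In orpk it fell by 0.45 ± 0.11 at 2 and by 0.60 ± 0.12 at 30, and -0.15 ± 0.13 between 2 and 30 did not pass (adjusted p = 0.290). The responses differed by -1.85 ± 0.32 at 2 and by -2.65 ± 0.29 at 30, so that a 17.5-fold excess in static orpk cells was 4.86-fold at 2 and 2.80-fold at 30 dyn/cm2. The WT step from 2 to 30 dyn/cm2, 0.64 ± 0.21 (adjusted p = 0.0142), was 0.49 (adjusted p = 0.106) without WT 2 replicate 1 and 0.55 (adjusted p = 0.0805) without WT 30 replicate 2.

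A gene on the other strand overlaps a small part of the Gli1 exons. Arhgap9 shares 62 of its 3787 exon bases with Gli1, 1.24% of Gli1's 4995. The strand setting used in counting is not given in the sources used here. Arhgap9 had mean levels of 0.429, 1.93 and 2.48 CPM in WT static, 2 and 30, and of 1.71, 1.17 and 1.09 CPM in the orpk groups. Like Gli1, it rose in WT by 2.16 ± 0.30 at 2 and by 2.52 ± 0.28 at 30, fell in orpk at 30 by 0.63 ± 0.27 (adjusted p = 0.0349), was higher in orpk than in WT when static (1.97 ± 0.32), and had interactions of -2.69 ± 0.40 at 2 and -3.15 ± 0.40 at 30. Unlike Gli1, it was lower in orpk than in WT at 2 (-0.72 ± 0.23) and at 30 dyn/cm2 (-1.18 ± 0.24). The part of Arhgap9 reads in the Gli1 counts was not tested.

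Gli2, the main activator among the Gli factors, was all but unread in WT, with 0, 0 and 0 reads static, 1, 1 and 1 at 2 dyn/cm2, and 1, 3 and 0 at 30. In orpk it had 49.3, 48.9 and 46.5 CPM static, 38.0, 37.3 and 41.3 at 2, and 23.2, 24.3 and 24.0 at 30, groups that did not overlap. It fell in orpk by 0.31 ± 0.06 at 2 and by 1.02 ± 0.07 at 30, with 0.71 ± 0.07 of this between the shears. It was at least 756-fold higher in orpk static cells, 694-fold at 2 (95% exact counting interval 237 to 3367) and 315-fold at 30 (123 to 1159). In WT, 30 dyn/cm2 against static was called (adjusted p = 0.0368) on 4 reads against 0. With the 0 set at 3 reads over the group the ratio was 1.19, which leaves out the counting error of the 4 reads and is no lower limit. The call was lost with DESeq2 (adjusted p = 0.0809), without any 1 of the WT static libraries (adjusted p from 0.0747 to 0.0888) and without WT 30 replicate 2 (adjusted p = 0.252). It gives no measure of a WT response.

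Gli3, mainly a repressor, was the steadiest Gli factor between the genotypes and the only member whose genotype difference changed sign with shear. WT libraries had 118, 110 and 116 CPM static, 75.4, 81.3 and 84.6 at 2 dyn/cm2, and 92.0, 94.4 and 94.1 at 30. The orpk libraries had 79.9, 81.1 and 83.2 CPM static, 106, 109 and 109 at 2, and 69.9, 71.8 and 68.0 at 30. At 2 dyn/cm2, then, WT was at its lowest and orpk at its highest. Gli3 fell in WT by 0.51 ± 0.04 at 2 and rose in orpk by 0.41 ± 0.04, a difference between the responses of 0.92 ± 0.06 (adjusted p = 1.33e-16). At 30 against static it fell in both, by 0.29 ± 0.04 in WT and 0.22 ± 0.05 in orpk, and these differed by 0.08 ± 0.06 (adjusted p = 0.305). From 2 to 30 dyn/cm2 the responses again parted, with 0.22 ± 0.04 in WT and -0.63 ± 0.04 in orpk, a difference of -0.85 ± 0.06. The genotype difference was -0.50 ± 0.04 static, 0.43 ± 0.04 at 2 and -0.42 ± 0.04 at 30.

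Under shear the members' directions can be counted against the background. In WT at 2 dyn/cm2, Gli1 and Ptch1 were the 2 members that rose (32.6% of all genes did) and 4 fell (30.3%): Smo, Sufu, Gli3 and Gas1. In WT at 30, Gli1 and the barely read Gli2 were called higher (34.1% of all genes) and 5 members were lower (32.7%), namely Ptch1, Smo, Sufu, Gli3 and Gas1. From 2 to 30 dyn/cm2 in WT, 2 rose (15.9%), Gli1 and Gli3, and 3 fell (17.2%), Ptch1, Smo and Gas1. In orpk at 2, 3 rose (30.9%), Smo, Sufu and Gli3, and 5 fell (31.1%), Ptch1, Gli1, Gli2, Gas1 and Boc. In orpk at 30, 0 rose (36.5% of all genes did by edgeR) and 6 fell (33.3%): Ptch1, Gli1, Gli2, Gli3, Gas1 and Boc. From 2 to 30 dyn/cm2 in orpk, 0 rose (32.1%) and 6 fell (31.5%): Smo, Sufu, Gli2, Gli3, Gas1 and Boc. Nothing about the members as a set is read from these counts beside the shares of all genes. With library totals as the scaling, the share of called genes that were higher went from 51.8% to 65.9% in WT at 2, from 49.8% to 64.3% in orpk at 2 and from 50.4% to 34.4% in orpk from 2 to 30.

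**Figure D2:**
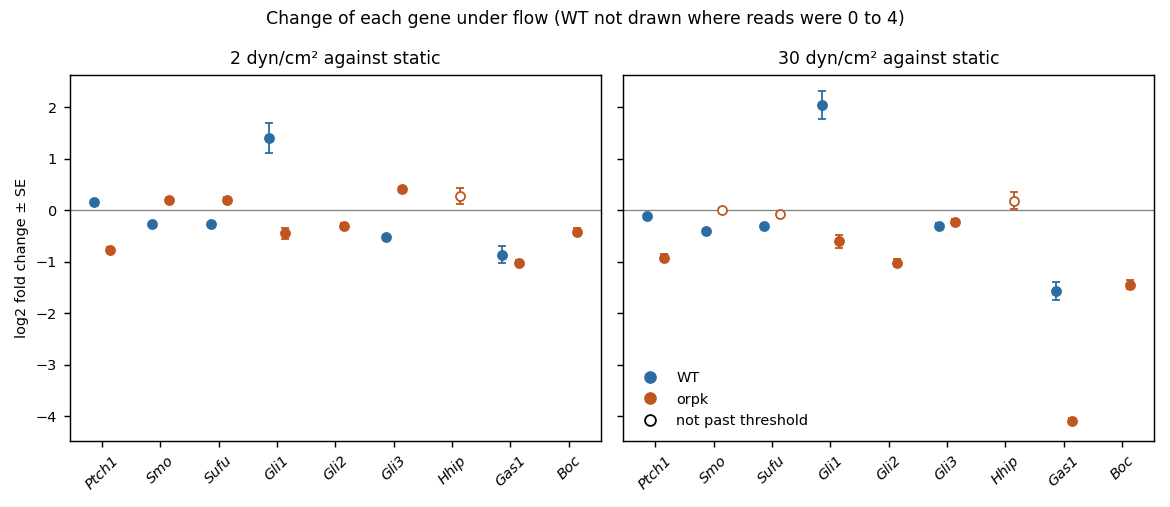
log2 fold change (± SE, edgeR) of each gene at 2 (left) and 30 dyn/cm2 (right) against static cells of the same genotype; open circles did not pass the threshold, and WT values of Gli2, Hhip and Boc are left out because a group held 4 reads or fewer. Gli1 lies above 0 in WT (1.41 and 2.05) and below it in orpk, and Gas1 in orpk reaches -4.09 at 30 dyn/cm2. The SE was derived from the F statistic of the test.

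The difference between the genotypes' responses was tested directly for each member. For 2 dyn/cm2 against static, the response was higher in orpk for 3 members (27.1% of all genes), Smo, Sufu and Gli3, and lower for 2 (25.4%), Ptch1 and Gli1. For 30 against static it was higher for 2 (30.6%), Smo and Sufu, and lower for 4 (26.9%), Ptch1, Gli1, Gas1 and Gli2, the last of which rests on 4 WT reads. From 2 to 30 dyn/cm2 it was higher for 0 (25.0% by edgeR) and lower for 4 (21.5%), Sufu, Gli1, Gli3 and Gas1. Hhip, with no WT read, has no such value. With library totals, the share of called genes with a higher orpk response went from 53.2% to 42.8% for 30 against static and from 53.7% to 38.9% for 30 against 2.

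Ratios of 2 members within a library do not depend on the scaling between libraries. Counted per kilobase of exon, Ptch1 exceeded Gli1 by 96.2 ± 11.5 to 1 in WT static cells (SD, n = 3), 40.4 ± 5.46 in WT 2 and 21.3 ± 3.19 in WT 30, and by 1.97 ± 0.19, 1.57 ± 0.01 and 1.58 ± 0.27 in orpk static, 2 and 30. The WT groups did not overlap one another and none came near an orpk library. Smo to Ptch1 was 3.43 ± 0.07, 2.56 ± 0.19 and 2.81 ± 0.19 in WT and 11.2 ± 0.39, 21.9 ± 0.67 and 21.6 ± 2.47 in orpk. Gas1 to Smo was 0.0542 ± 0.0028, 0.0357 ± 0.0027 and 0.0241 ± 0.0041 in WT. In orpk that ratio went from 2.37 ± 0.10 static to 1.02 ± 0.05 at 2 and 0.138 ± 0.014 at 30 dyn/cm2, so static orpk cells held more Gas1 than Smo transcript per kilobase and orpk cells at 30 far less. Gli3 to Gli2 in orpk was 1.21 ± 0.06 static, 2.00 ± 0.10 at 2 and 2.10 ± 0.07 at 30. These ratios are given as descriptions, without a test.

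**Figure D3:**
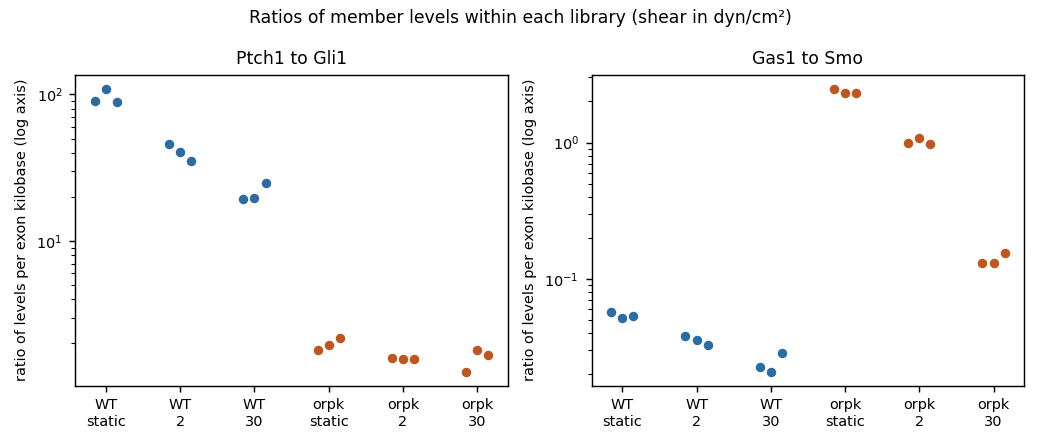
Ratio of Ptch1 to Gli1 (left) and of Gas1 to Smo (right) in each of the 18 libraries, as reads per kilobase of exon, on log axes; each point is 1 library, 3 per group. Ptch1 to Gli1 steps down with shear in WT, from a mean of 96.2 to 21.3, and stays between 1.29 and 2.16 in orpk.

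On a per-length scale (RPKM, TMM-normalised CPM per kilobase of exon) the order of levels also differed between the genotypes. In WT static cells Smo led with 31.8 ± 0.46, followed by Gli3 with 11.96 ± 0.42, Sufu with 10.05 ± 0.26, Ptch1 with 9.28 ± 0.14, Gas1 with 1.73 ± 0.09 and Gli1 with 0.0974 ± 0.0116 RPKM (SD, n = 3). In orpk static cells Gas1 led with 90.7 ± 5.91, then Smo with 38.2 ± 0.93, Boc with 9.28 ± 0.49, Gli3 with 8.49 ± 0.17, Gli2 with 7.02 ± 0.22, Sufu with 5.22 ± 0.26, Ptch1 with 3.41 ± 0.06, Gli1 with 1.74 ± 0.14 and Hhip with 0.528 ± 0.071. At 30 dyn/cm2 Gas1 in orpk was at 5.35 ± 0.54 RPKM, and Smo led there with 38.7 ± 0.41.

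The rest of the pathway was read from 4 lists. Of 10 genes for ligands and their processing and release, 7 had too few reads to test: Shh had 0 reads in the 18 libraries (allowing up to 0.0105 CPM over all of them), Ihh 25, Dhh 17, Hhatl 15, Disp2 59, Scube1 2 and Scube2 72. Of the 3 tested, Scube3, a secreted protein of a family that helps release ligand, was at 272 ± 20.7 CPM in WT static and 2.41 ± 0.13 in orpk static cells, a difference of -6.82 ± 0.10. That SE, on 104 orpk static reads, is smaller than counting error alone. Hhat, the acyltransferase that adds palmitate to the ligand, and Disp1, which exports it, were higher in orpk static cells by 0.84 ± 0.12 and 0.28 ± 0.06. Hhat fell in orpk at 2 by 0.61 ± 0.11 and rose at 30 by 0.54 ± 0.10.

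Among 7 other receptors and surface proteins, 6 were higher and 1 lower in orpk static cells (44.4% and 43.4% of all tested genes), and their median was 0.54 against 0.01 over all genes. Listed genes all but unread in WT, such as Gpc3 (0 to 4 reads in a WT group), passed the filter only through orpk. They could be called only as higher, so no tilt of the list is read from these counts or the median. The gene lower in orpk was Lrp2 (megalin), an endocytic receptor, at 198 ± 7.49 CPM in WT and 5.72 ± 0.09 CPM in orpk static cells (-5.11 ± 0.11). Cdon, the co-receptor most like Boc, was present in both genotypes, at 187 ± 3.46 CPM in WT and 267 ± 12.1 CPM in orpk static cells. It fell under shear in WT by 0.74 ± 0.06 at 2 and 0.65 ± 0.06 at 30, and in orpk by 0.62 ± 0.06 at 2 and 2.83-fold at 30, the responses to 30 differing by -0.85 ± 0.09. All 3 co-receptors, Gas1, Boc and Cdon, thus fell in orpk at both shears.

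Of 26 genes for ciliary and cytoplasmic transduction, 25 were tested (Adrbk1 is an older symbol of Grk2, which is among them). In orpk static cells 12 were higher and 10 lower (44.4% and 43.4% of all tested genes), the median change being 0.07, and the median size was 0.40 against 0.75 over all genes. The widest differences were those of Gpr161, a ciliary receptor that restrains the pathway (-2.21 ± 0.06), Stk36, a kinase related to fly Fused (-2.02 ± 0.09), Efcab7, which anchors the Evc complex of the cilium (1.91 ± 0.11), and Arrb1, a beta-arrestin (-0.97 ± 0.04). Gpr161 was at 88.1 ± 1.43 CPM in WT and 19.0 ± 1.06 CPM in orpk static cells, and rose in orpk under shear by 0.68 ± 0.07 at 2 and 0.82 ± 0.07 at 30. Arrb1 fell under shear in WT by 1.47 ± 0.04 at 2 and 1.56 ± 0.04 at 30, and in orpk by 0.59 ± 0.05 and 1.32 ± 0.05. Under 30 dyn/cm2, 5 of the 25 rose and 15 fell in WT, where 34.1% and 32.7% of all tested genes did, and 7 rose and 15 fell in orpk, where 36.5% and 33.3% did.

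Genes reported as Gli targets in other tissues, 22 in the list of which 20 were tested, did not move one way. In orpk static cells 13 were higher and 7 lower (44.4% and 43.4% of all tested genes), and the median was 1.4, against 0.01 over all genes; at 2 the counts were 13 and 5 (44.6% and 42.9%), and at 30 they were 12 and 6 (44.9% and 42.0%). Ccnd2 (cyclin D2) was at 0.296 ± 0.091 CPM in WT and 556 ± 5.88 CPM in orpk static cells, Snai2 (a transcription factor of mesenchymal cells) at 0.0849 ± 0.0746 and 103 ± 2.84 CPM, and Angpt1 (the Tie2 ligand angiopoietin-1) at 0.0834 ± 0.0274 and 86.0 ± 3.72 CPM. Foxc2 had no WT read and was at least 13.8-fold higher in orpk static cells. Ccnd2, Snai2, Angpt1 and Foxc2, with 0 to 14 reads in a WT group, passed the filter only through orpk. Such genes could be called only as higher, so no tilt of the list is read from its counts or median. Under shear, Vegfa, the angiogenic growth factor, fell by 2.90 ± 0.04 in WT at 2 and by 2.89 ± 0.04 at 30, and Snai1 rose in WT at 30 by 1.49 ± 0.13. In WT at 30 dyn/cm2, 5 of these 20 rose and 7 fell, near the 34.1% and 32.7% of all genes. In orpk at 30, 4 rose and 9 fell (36.5% and 33.3% of all genes). Osr2 fell by 1.92 ± 0.33 and Jag2 fell by 1.56 ± 0.25, while Mycn rose by 2.10 ± 0.48. These changes rest on few reads. In orpk static and orpk 30, Osr2 had 86 and 21 reads over the group, Jag2 108 and 34, and Mycn 9 and 37.

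**Figure D4:**
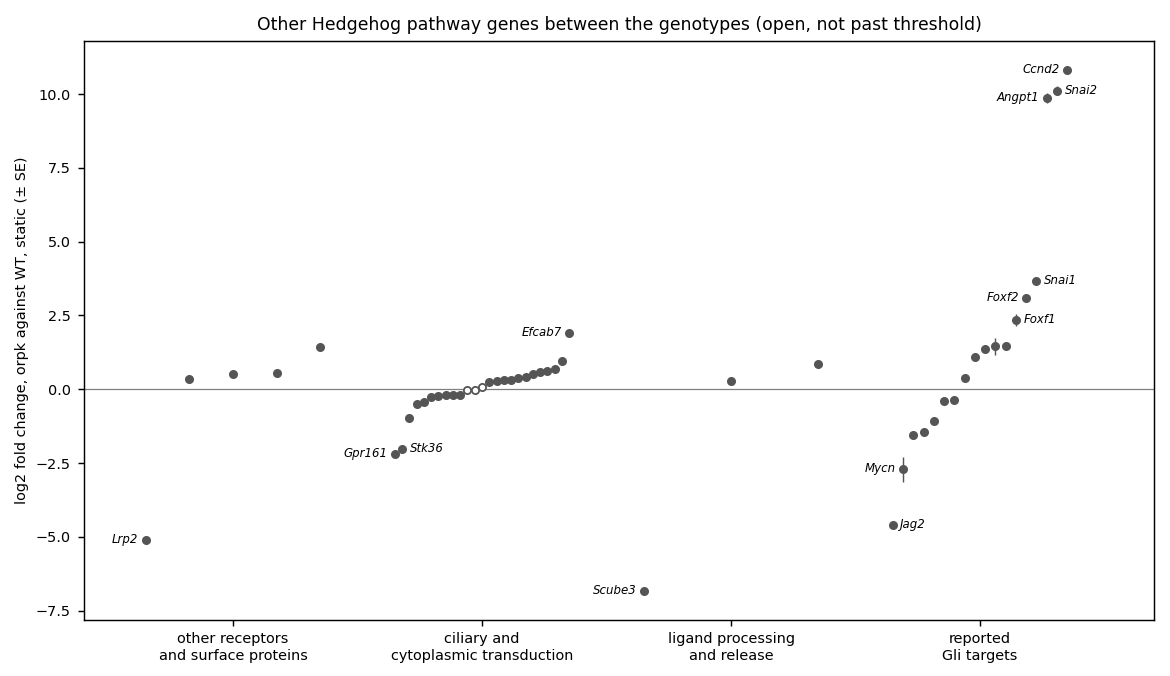
log2 fold change (± SE, edgeR) of orpk against WT static cells for the tested genes of the 4 pathway lists, each point 1 gene, ordered by value within its list; genes with 3 reads or fewer in a group (Foxc2 and Gpc3) and 1 gene that is not reported here are left out. Scube3 (-6.82) and Lrp2 (-5.11) lie lowest, and Ccnd2 (10.83), Snai2 (10.12) and Angpt1 (9.85) highest. The SE was derived from the F statistic of the test. It is smaller than counting error alone for Snai2 and Angpt1 (4 WT static reads each), Ccnd2 (14) and Scube3 (104 orpk static reads).

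The genes with the pattern most like each member were sought over the 6 group means among 10616 tested genes of at least 5 CPM on average, by the root mean square difference of centred log2 CPM. The nearest to Ptch1 was B9d2, a gene of the ciliary transition zone, at 0.15, followed by Stard10 (0.18) and Brwd3 (0.18). Nearest to Smo were Ext2 (0.03), Slc25a39 (0.05) and Wasl (0.05), and to Sufu Zfp280d, H2afz and Gtf2a1 (0.05 each). For Gli1 they were Spn (0.13), Inka1 (0.22) and Serpini1 (0.24), for Gli2 Prickle2 (0.14), Serpinb8 (0.15) and Pdpn (0.18), and for Gli3 Rnd3 (0.09), Sp4 (0.09) and Kcnab2 (0.10). Hhip had BC028528 (0.19), Magee1 (0.21) and Ephb3 (0.25), and Boc had St8sia4 (0.10), Cpa6 (0.11) and Mgat4c (0.12). Gas1 had the largest distances, to Islr (0.45), C1s2 (0.49) and C1s1 (0.51), the last 2 being copies of a complement protease gene whose reads may be shared. This distance grows with a member's own root mean square spread over the groups, 2.72 for Gas1 and 0.25 for Gli3. By correlation, Rnd3 was less like Gli3 (r = 0.948) than Islr was like Gas1 (r = 0.988). These are likenesses over 6 points that share libraries, and no test was made. For Gli2, Hhip and Boc the WT points lay at or near -2.98, the log2 CPM given to a gene without reads. Any gene all but unread in WT is close to them at those points for that reason alone. Cpa6 and Mgat4c stood at -2.98 in every WT group.

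Position and annotation of the members, on GRCm38 with GENCODE M21, are as follows. Ptch1 lies at chr13:63508328-63573598 and Gas1 at chr13:60174405-60177365, both on the minus strand of one chromosome, which also holds Gli3 at chr13:15463235-15730026 on the plus strand. Gli1 lies at chr10:127329882-127341974, Gli2 at chr1:118834132-119053619, Hhip at chr8:79965851-80058006 and Boc at chr16:44485049-44558897, all on the minus strand. Smo is at chr6:29735503-29761365 and Sufu at chr19:46396896-46488804, on the plus strand. Besides Arhgap9, the non-coding genes Gm47200 (Gli1), Gm6556 (Gli3), Gm27820 (Hhip) and Gm48488 (Gas1) overlap exons from the other strand, and these are not analysed here.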

How the data were processed

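RNA was measured in 18 libraries (6 groups of 3, taken from the labels), with totals of 13626480 to 17387553 reads. The deposited table holds raw counts of reads per gene made by the authors; the submitters' processing notes name CASAVA 1.8.2, STAR 2.4, featureCounts 1.4.6 and the build GRCm38, without settings. Gene symbols came from GENCODE M21 (21583 of 21647 rows), and sequences from RefSeq (GRCm38.p6). In R 4.3.3, edgeR 4.0.16 was fitted to all libraries (filterByExpr, TMM factors, 6 group means, robust quasi-likelihood F test), with Benjamini-Hochberg adjustment at 0.05 within each of 12 comparisons; 12 residual degrees of freedom remained and the biological coefficient of variation was 3.28%. The script was tested on simulated data. Folds against a group without reads use a floor of 3 reads over the group. The 9 members and all lists were chosen with earlier results of these data known. Named were every member, Ift88, up to 4 called genes of largest change per pathway list and comparison, list genes without reads, and the 3 nearest genes in pattern; cell type markers are given by list, and untested list genes, Arhgap9, Pdgfra and Thy1 were named after their values were seen. Alternatives were other scalings, no filter, DESeq2 1.42.0, only the groups compared, a replicate term, and each library left out. Replicate numbers did not pair the libraries (0 of 9 comparisons with every correlation over 0.1). One gene of the pathway lists is not reported here by name; the lists' counts include it.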

Additional observations from a re-analysis of the deposited data

Results flagged for a closer look

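The shear response differed between the genotypes, by an interaction test in edgeR past the threshold, for 15 combinations of member and shear step, given as the orpk response minus the WT response on the log2 scale. For 2 dyn/cm2 against static these were Ptch1 (-0.93), Smo (0.46), Sufu (0.46), Gli1 (-1.85) and Gli3 (0.92). For 30 dyn/cm2 against static they were Ptch1 (-0.81), Smo (0.42), Sufu (0.24), Gli1 (-2.65), Gli2 (-4.42, fitted on 4 WT reads against 0 and no measure of size) and Gas1 (-2.52). For 30 against 2 dyn/cm2 they were Sufu (-0.22), Gli1 (-0.79), Gli3 (-0.85) and Gas1 (-2.37). Of all tested genes, 27.1% had a higher and 25.4% a lower orpk response for 2 dyn/cm2 against static. The shares were 30.6% and 26.9% for 30 against static, and 25.0% and 21.5% for 30 against 2. Beside these shares, nothing about the 9 members as a set is read from the count of 15.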

How the results depend on the processing

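Over 1362 recomputed values of 102 member differences, 1322 kept their direction and side of the threshold, 17 lost the call, 11 gained it and 12 changed sign; for 82 differences nothing changed. All 162 recomputed counts of members and all 162 of all genes stayed within 1.5 times. Hhip has no value for WT shear or interactions, and genes with so few WT reads as Gli2 and Boc cannot show a WT change at this depth. Some differences changed sign with 1 library left out, over these ranges: Boc in WT from -1.57 to 0.12 at 2, from -1.34 to 0.63 at 30 (both highest without WT static replicate 3) and from -0.30 (without WT 30 replicate 3; -0.0062 without WT 2 replicate 1) to 1.00 between them; the Boc interaction at 2 from -0.53 (without WT static replicate 3) to 1.15; Gli2 from 2 to 30 from -0.80 (without WT 30 replicate 2) to 0.94 in WT and from -1.65 to 0.0986 (without that library) in the interaction; Hhip from 2 to 30 in orpk from -0.27 to 0.0698 (without orpk 30 replicate 1). Smo in orpk at 30 against static was -0.0223 with RLE factors, -0.0052 with only the groups compared and -0.0222 with DESeq2, and the Gli3 interaction at 30 was -0.0234 with library totals. None of the values that changed sign passed the threshold, before or after. Library totals also took Ptch1 in WT at 30 (-0.02), Smo between static genotypes (0.05) and the Sufu interaction at 30 (0.14) below the threshold and brought the Smo interaction from 2 to 30 (-0.13) past it; they shift the median of all genes by -0.31 to 0.11. The Gli2 interaction at 30 was -3.22 (adjusted p = 0.162) without WT 30 replicate 2. With a replicate block the counts of called genes changed by a factor of 0.995 to 1.00, and 7 in place of 6 members passed in orpk from 2 to 30, the addition being Ptch1 (-0.15, adjusted p = 0.0485); correlations of same-numbered libraries were -0.083 to 0.086. The causes were not tested.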
